A study of Mus musculus with 36 samples.

Results

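Actb and Actg1, the genes of the cytoplasmic beta- and gamma-actin, were followed together with 8 genes for proteins that turn actin filaments over: Cfl1, Cfl2, Dstn, Pfn1, Pfn2, Cap1, Arpc2 and Actr2. The 10 genes were taken by their symbols from the 16614 rows of the count table, and all 10 were present. Their levels were read in all 36 libraries, and peaks of ribosome-protected fragments (RPFs) on their transcripts were read in the 12 libraries that have a peak file.

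Actin exists as a soluble monomer and as a filament. Profilins (Pfn1, Pfn2) load the monomer with ATP and bring it to the growing end, the ARP2/3 complex (Actr2, Arpc2) starts branches on existing filaments, cofilins and destrin (Cfl1, Cfl2, Dstn) sever and depolymerize old filaments, and the cyclase-associated protein Cap1 helps cofilin and recycles the released monomer. In developing neurons this cycle drives growth cones and dendritic spines, and beta-actin mRNA is a classic example of an mRNA that travels in neuronal RNA granules. FMRP, the protein product of Fmr1, is an RNA-binding protein found in such granules, and its loss causes fragile X syndrome.

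Whole brains of WT (C57BL/6) and FMR1-KO mice were taken on postnatal day 5 and frozen, 10 brains were pooled for each preparation, and the homogenate was centrifuged on a sucrose gradient. WT mice carry Fmr1, and FMR1 KO mice (strain listed as FMR1 -/y) carry it disrupted in all cells. The study states that mice of both sexes were used, and no sex is given here for single pools. Ribosome clusters were collected from the pellet, which the labels call granules, and from fraction 5/6, which the labels call polysomes. RPFs were sequenced from both and RNA-seq was done on the whole brain homogenate, with 3 libraries in each of 12 groups. The standard preparation used 10 mM MgCl2 and more nuclease at room temperature, and the low nuclease preparation used 2.5 mM MgCl2 and digestion at 4 °C. These settings changed together, so their effects cannot be told apart. All groups are pools of whole brains, in which fewer cells of a type and less RNA per cell cannot be told apart. Nothing in the labels ties a number to a litter, so p-values measure the spread between pooled preparations. By the study's methods, the 3 RPF replicates of a group were combined after linker ligation and shared the later library steps. The spread within an RPF group therefore leaves these steps out, and effects of group and library pool cannot be told apart.

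Without Cdk8, whose row took 36.7% to 63.4% of the standard RPF counts, the library totals were 4284209 to 21274803 in the standard RPF libraries, 22378936 to 60377525 in the low nuclease RPF libraries and 38505915 to 147207607 in RNA-seq. The targeted gene Fmr1 had 64.6 to 67.8 CPM (counts scaled to a common library total, here always without Cdk8) in the WT pellet and 4.79 to 4.93 CPM in the KO pellet of the standard preparation, and 60.6 to 71.9 CPM in the WT and 16.4 to 18.1 CPM in the KO RNA-seq. In fraction 5/6 the WT libraries had 100.1, 68.6 and 3.17 CPM of Fmr1, and the KO libraries 5.98, 6.82 and 10.7 CPM. The library with 3.17 CPM goes against its label and is called here the library labelled WT fraction 5/6 replicate 3. Its fraction is in doubt as well, since over 7026 genes its correlation (r, a description) with the other fraction 5/6 libraries was 0.795 to 0.859 and with the pellet libraries 0.821 to 0.923, so the WT fraction 5/6, enrichment and peak values that include it carry both doubts. Counts of the 10 genes called and the ratio of the actins are given with and without it, and all other values of standard WT fraction 5/6 include it. In the low nuclease preparation, 3 RNA-seq libraries had 82.4% to 85.0% of their counts in 10 genes. Summed neuronal markers (Tubb3, Map2, Snap25, Syt1, Stmn2) were at 5253 to 11210 CPM in the standard RPF libraries, so the labelled tissue and its markers match. The summed microglial markers were at 57.1 to 132.6 CPM there and at 156.2 to 176.4 CPM in the standard RNA-seq, and the oligodendrocyte markers at 25.0 to 73.4 and 140.4 to 421.1 CPM.

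The sequences at the strongest peaks of the actins and of Cfl1 are given first, because these positions recur in nearly all libraries. A peak here is an interval of high RPF coverage on a transcript, and its middle was taken as the zenith. The first lines are 42-base windows of Actg1 at its 3 matched coding peaks, the second and the third followed by Actb at the same codons. In the Actg1 lines the capitals mark any of 4 short motifs that the study searched as FMRP-related. The motifs searched were AGGA, the similar TGGA, the motif GACA, and its variant GACG. In the Actb lines the capitals mark the bases that differ from Actg1. All are written 5′ to 3′ on the transcript strand, from GRCm38.

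Actg1, codons 114 to 128: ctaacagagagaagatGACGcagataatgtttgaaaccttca
Actg1, codons 261 to 274: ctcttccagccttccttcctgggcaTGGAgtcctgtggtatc
Actb, codons 261 to 274: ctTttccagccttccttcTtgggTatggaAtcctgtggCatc
Actg1, codons 321 to 335: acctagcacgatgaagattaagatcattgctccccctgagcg
Actb, codons 321 to 335: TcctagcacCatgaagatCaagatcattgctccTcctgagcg

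The pairs shown differ at 5 and 4 of 42 bases. Over the whole coding sequence of 1128 bases the actins differ at 128 bases (88.7% identical), and the longest identical stretch is 62 bases. The first Actg1 window lies on the minus strand of chromosome 11 in exon 3 (chr11:120347636-120347658) and exon 4 (chr11:120347331-120347349), the second in exons 4 and 5 (chr11:120346911-120346932 and chr11:120346799-120346818), and the third in exons 5 and 6 (chr11:120346637-120346658 and chr11:120346514-120346533). Each window therefore crosses an exon junction.

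All but the Actb windows come from the study's list of pellet peaks. The next 4 windows show the tallest peak of Actb, the 2 peaks of Cfl1 that recurred in 11 and 12 of 12 libraries, and the Actr2 peak that recurred in 10. Capitals mark any of the 4 motifs.

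Actb, codons 362 to 375: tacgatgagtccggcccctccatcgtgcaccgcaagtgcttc
Cfl1, codons 74 to 87: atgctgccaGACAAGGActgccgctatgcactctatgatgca
Cfl1, codons 123 to 137: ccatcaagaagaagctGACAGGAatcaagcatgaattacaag
Actr2, codons 328 to 341: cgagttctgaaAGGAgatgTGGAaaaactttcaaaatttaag

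The Actb window is in exon 6 (chr5:142903801-142903842, minus strand), the first Cfl1 window in exon 2 (chr19:5492713-5492754, plus strand), and the second Cfl1 window spans exon 3 (chr19:5493211-5493231) and exon 4 (chr19:5493381-5493401). The Actr2 window spans exon 8 (chr11:20072456-20072488) and exon 9 (chr11:20064851-20064859) on the minus strand. The combined list of pellet peaks from which these sequences come holds 603 sequences as read here, and 13 of them are on these genes (Actr2 5, Actg1 and Cfl1 3 each, Dstn 2). Not all 13 recurred among the peaks read here. The best-matched peak in the Cfl1 window at codons 54 to 68 was in 2 libraries, both of WT fraction 5/6. The Actr2 window at codons 208 to 222 held no peak, and the other windows had one in 6 to 12 libraries. Of the 13, 11 hold at least 1 of the 4 motifs (84.6%, against 66.8% of all 603), searched on the transcript strand only and for these 4 motifs alone. AGGA was in 46.2% of the 13 and 32.5% of the 603, TGGA in 38.5% and 32.7%, GACA in 38.5% and 21.6%, and GACG in 15.4% and 9.62%. A match of 4 letters is a description and not a binding site.

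In the standard preparation Actb had the highest level of the set, and Actg1 came next in mean CPM of each group, though not per kilobase of coding sequence. Actb (ENSMUSG00000029580, chr5:142903115-142906754 on GRCm38) had 4731, 5684 and 3787 CPM in the 3 WT pellet libraries and 4569, 2984 and 5369 CPM in the KO pellet. The genotypes overlapped, and the spread within each was wider than the gap between their means (4734 ± 948 and 4307 ± 1214 CPM, SD, n = 3). In RNA-seq, Actb had 6222, 6483 and 5705 CPM in WT and 5569, 5593 and 5762 CPM in KO. Actg1 (ENSMUSG00000062825, chr11:120345690-120348542) had 681, 703 and 579.9 CPM in the WT pellet, 758, 431.5 and 685 CPM in the KO pellet, and 1856, 2034 and 1717 CPM in the WT RNA-seq. In the standard preparation every pellet library was below every RNA-seq library for Actg1. At low nuclease this did not hold. The 3 RNA-seq libraries whose counts lay mostly in 10 genes had 65.8 to 96.7 CPM of Actg1, below all pellet libraries. In addition, KO pellet replicate 1 (1009 CPM) lay just above WT RNA-seq replicates 1 and 3 (1006 and 1008 CPM).

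Among the depolymerizing proteins, Cfl1 (ENSMUSG00000056201, chr19:5490455-5495201), the main cofilin of non-muscle cells, had 361, 476 and 242 CPM in the WT pellet and 343, 324 and 357 CPM in the KO pellet. Its RNA-seq levels were 1648, 1609 and 1458 CPM in WT. Cfl2 (chr12:54858809-54862877), the cofilin typical of muscle, was the lowest of the set in the pellet, at 64.5, 75.7 and 52.9 CPM in WT and 75.0, 52.5 and 62.9 CPM in KO. Dstn (chr2:143915320-143943324) was at 180.5, 219 and 141.4 CPM in the WT pellet and 225.4 to 256.9 CPM in the WT RNA-seq. Again the WT and KO pellet libraries overlapped for each of the 3 genes.

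Of the profilins, Pfn1 (chr11:70651850-70654644), the widely expressed form, had 106.8, 146.8 and 77.7 CPM in the WT pellet, and Pfn2 (chr3:57841895-57848079), the form typical of neurons, had 161.5, 185.9 and 138.5 CPM. In the WT RNA-seq, Pfn1 was at 277.4 ± 14.6 and Pfn2 at 565 ± 61.9 CPM (SD, n = 3). Cap1 (chr4:122859047-122886056) was the exception to this order of pellet and RNA-seq, at 274.8, 302.0 and 244.1 CPM in the WT pellet and 191.4, 215.3 and 208.5 CPM in the WT RNA-seq, without overlap. In KO it overlapped, at 269.2, 196.3 and 294.1 CPM in the pellet and 187.7 to 205.6 CPM in RNA-seq. Arpc2 (chr1:74236084-74268209), a core subunit of the ARP2/3 complex, had 144.3, 165.3 and 131.5 CPM in the WT pellet, and Actr2 (chr11:20062304-20112913), the actin-related ARP2 subunit, had 378, 384 and 357 CPM. Arpc2 was higher in every WT RNA-seq library (231.2 to 268.4 CPM), while Actr2 was at nearly equal CPM in pellet and RNA-seq (355 to 396 CPM in the latter).

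**Figure D1:**
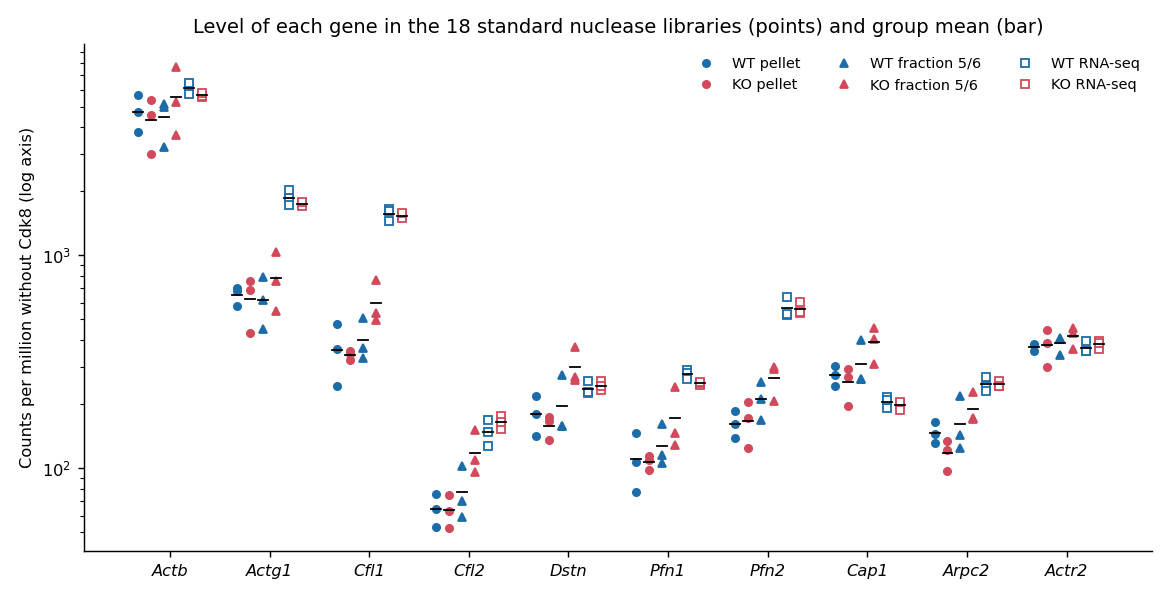
CPM without Cdk8 (log axis) of the 10 genes in the 18 libraries of the standard preparation, one point per library, with a bar at the mean of each group of 3. WT and FMR1 KO points overlap in the pellet for every gene, Actg1 and Cfl1 lie lower in RPFs than in RNA-seq, and Cap1 lies higher in all RPF libraries but KO pellet replicate 2 (196.3 CPM).

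Per kilobase of the transcript's coding sequence, the level in the WT pellet was 4197 ± 841 for Actb, then 718 ± 233 for Cfl1, 580 ± 58.1 for Actg1, 383 ± 56.1 for Pfn2, 362 ± 77.7 for Dstn, 314.7 ± 12 for Actr2, 261.1 ± 82.0 for Pfn1, 192.0 ± 20.3 for Cap1, 162.8 ± 18.9 for Arpc2 and 128.5 ± 22.7 for Cfl2 (CPM per kb, SD, n = 3). The step from Actb to Cfl1 and the step from Actg1 to Pfn2 exceeded the SDs of both neighbours. All other neighbours in this order overlapped within 1 SD. Per kilobase of exon in the WT RNA-seq, Actb was at 2291 ± 148, Actg1 at 703 ± 59.7, Cfl1 at 553 ± 35.3 and Pfn2 at 159.4 ± 17.5 CPM per kb (SD, n = 3). Dstn, Arpc2 and Pfn1 followed at 115.3 to 123.8 CPM per kb and overlapped with each other, with Actr2, Cap1 and Cfl2 below them at 70.8, 58.7 and 45.2 CPM per kb. The lengths differ between these orders, and per kilobase of coding sequence Cap1 (143.9 CPM per kb) and not Cfl2 was last in the WT RNA-seq.

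The balance of the 2 actins differed between RPFs and RNA. The ratio of Actb to Actg1 counts was 6.03 to 8.98 (median 7.79) in the 24 RPF libraries and 2.82 to 3.80 (median 3.31) in the 12 RNA-seq libraries, with no overlap. In the standard preparation it was 7.06 ± 0.78 in the 6 pellet libraries and 3.25 ± 0.076 in the 6 RNA-seq libraries (SD; exact permutation test, two-sided p = 0.0022, the smallest that 6 against 6 allow, 0.0038 after Benjamini-Hochberg adjustment over 7 comparisons of this ratio). Fraction 5/6 was at 7.13 ± 0.55 (exact permutation test against RNA-seq, adjusted p = 0.0038), and at 6.95 ± 0.37 in 5 libraries without the one labelled WT fraction 5/6 replicate 3 (exact permutation p = 0.0043). In the low nuclease preparation it was 7.86 ± 0.63 in the pellet, 8.596 ± 0.391 in fraction 5/6 and 3.49 ± 0.37 in RNA-seq (SD, 6 libraries each; both exact permutation tests against RNA-seq gave an adjusted p of 0.0038). The scaling between libraries does not enter this ratio, because both genes come from the same library.

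Between the genotypes 3 against 3 libraries cannot give a p below 0.1. In the standard pellet it was 7.19 ± 0.81 in WT and 6.93 ± 0.91 in KO (SD of 3 libraries; p = 0.7 by a two-sided exact permutation). In the low nuclease pellet it was 8.31 ± 0.15 in WT and 7.41 ± 0.59 in KO (SD of 3 libraries; p = 0.1 by a two-sided exact permutation, 0.14 adjusted), and the genotypes did not overlap. In low nuclease fraction 5/6 the order was the opposite, with 8.38 in WT and 8.81 in KO as means of overlapping libraries, which was not tested. In standard fraction 5/6 it was 7.26 ± 0.75 in WT and 6.999 ± 0.376 in KO (p = 0.7 by the same exact permutation), and at 6.88 in WT without the library that goes against its label. The ratio of Cfl1 to Cfl2 was lower in RPFs without overlap in each preparation, at 4.54 to 6.29 in RPFs and 8.51 to 12.7 in RNA-seq of the standard preparation and at 6.54 to 9.32 and 17.5 to 22.9 in the low nuclease preparation, which was not tested. The ratio of Pfn1 to Pfn2 overlapped, at 0.499 to 0.811 in RPFs and 0.417 to 0.532 in RNA-seq of the standard preparation. Exact copies of both coding sequences elsewhere in the genome are described with the peaks, and their part in this ratio was not tested.

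**Figure D2:**
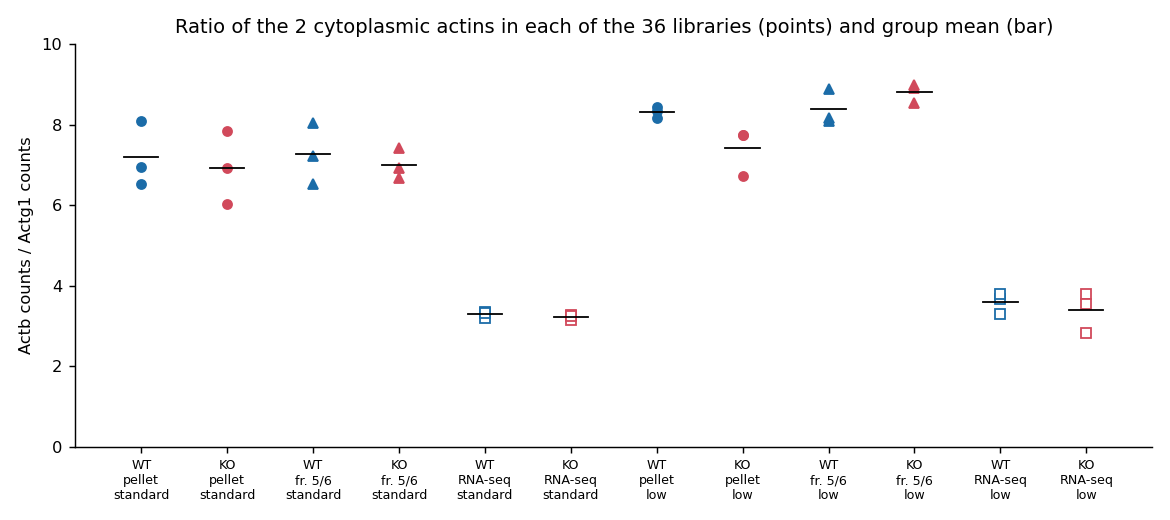
Ratio of Actb counts to Actg1 counts in each of the 36 libraries (points) with the mean of each group (bar), for pellet, fraction 5/6 and RNA-seq in the standard and low nuclease preparations. All 24 RPF libraries lie at or above 6.03 and all 12 RNA-seq libraries at or below 3.80.

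FMR1 KO was compared with WT to ask whether the loss of FMRP changed the RPFs of these mRNAs. None of the 10 genes passed the test in the pellet of the standard preparation (edgeR's quasi-likelihood test, adjusted p under 0.05 over 13157 genes, of which 0.0152% were called, with 703 at an unadjusted p under 0.05; DESeq2 called 66 genes and 0 of the 10). The differences ran from -0.28 to 0.07 on the log2 scale, with a median of -0.02 against 0.00 for all genes. The log2 difference was -0.12 for Actb (95% interval -0.69 to 0.45), -0.05 for Actg1 (-0.40 to 0.29) and 0.01 for Cfl1 (-0.54 to 0.55). Arpc2 was the only one of the 10 with an unadjusted p under 0.05, at -0.28 (95% interval -0.50 to -0.06, adjusted p = 0.86 by edgeR), with 144.3, 165.3 and 131.5 CPM in WT and 122.3, 96.7 and 134.1 CPM in KO, which overlap. The 95% intervals of the 10 genes lay between -0.69 (Actb) and 0.55 (Cfl1), and none reached a 2-fold change. Within that range these intervals do not show that the genotypes are alike. On simulated counts with this comparison's spread, a 2-fold change was recovered in 2% of 100 genes and a 4-fold change in 68%. Recovery for the 10 genes alone was not tested.

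The other genotype comparisons called none of the 10 either. In fraction 5/6 of the standard preparation the background was 0% of 13095 genes by edgeR (599 at an unadjusted p under 0.05), with and without the library labelled WT fraction 5/6 replicate 3 for the 10 genes. In RNA-seq it was 0.0736% (0.0307% higher and 0.0429% lower), and the 10 genes lay between -0.12 (Pfn1) and 0.19 (Cfl2) on the log2 scale, none of them with an unadjusted p under 0.05. In the low nuclease pellet (0.0197% called) they lay between -0.11 (Pfn1) and 0.18 (Cfl2), and in the low nuclease fraction 5/6 (0.0445% called, 0.0191% higher and 0.0255% lower) between -0.18 (Cfl2) and 0.28 (Pfn1). In that fraction 1345 of 15715 genes, none of the 10 among them, had an unadjusted p under 0.05 by edgeR. The CPM of WT and KO did not overlap there for Cfl1 and Pfn1 (KO higher) and Actr2 (KO lower). Nor did they for Pfn1 in standard RNA-seq (KO lower). How many of all genes do so was not counted. The difference in enrichment between the genotypes of the standard preparation, tested as an interaction, called none of 13734 genes by edgeR (766 at an unadjusted p under 0.05, none of the 10 among them), and none of the 10 without the library labelled WT fraction 5/6 replicate 3. Of the wider list of 54 genes of actin turnover (ARP2/3 subunits, nucleators, cofilin kinases and phosphatases, capping proteins, coronins, tropomyosins and others), 53 or 54 were tested in each of these comparisons and edgeR called 0.

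Occupancy is the level of RPFs in the pellet relative to RNA-seq, a measure of pellet ribosomes per mRNA. It does not give the share of an mRNA that lies in the pellet. In WT, edgeR called 5 of the 10 genes higher and 2 lower in the pellet (background 31.1% higher and 34.2% lower of 16173 genes). Cap1 was higher by 1.57 ± 0.12 (log2 fold change ± SE, adjusted p = 2.4e-05 by edgeR), Actr2 by 1.17 ± 0.12, Actb by 0.77 ± 0.17, Dstn by 0.75 ± 0.14 and Arpc2 by 0.39 ± 0.12. Cfl1 was lower, at -0.996 ± 0.205 (adjusted p = 0.0037 by edgeR), and so was Pfn2, at -0.66 ± 0.13. Actg1 (-0.36, adjusted p = 0.054 by edgeR), Pfn1 (-0.20) and Cfl2 (-0.05) did not pass. The median was 0.17 for the 10 genes and -0.10 for all genes tested, and a share of 7 in 10 called is near the 65.3% of all genes.

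These directions depend on how RPF libraries are set against RNA-seq. Scaled by library size alone, in place of the TMM factors, the median of all genes was -1.25, the WT occupancy of Actb turned to -0.37, of Dstn to -0.39 and of Arpc2 to -0.75, and that of Actr2 was 0.02, whereas Cap1 stayed higher and Cfl1 and Pfn2 stayed lower. The CPM given above lie on that scale, where Actb and Dstn have fewer CPM in the WT pellet than in RNA-seq. The order of the 10 genes among themselves is not touched by this choice. Against the standard RNA-seq, Cap1 and Actr2 headed it, Actb lay above Actg1, and Cfl1 came last. This order was not corrected for the share of each mRNA that codes. In the transcripts used for peaks it was 1425 of 2620 bases for Cap1, 1185 of 3631 for Actr2 and 501 of 2354 for Cfl1. The part of these shares in the order was not tested. Against the RNA-seq of the low nuclease preparation the order changed, with Dstn above Cap1 in both genotypes. There Pfn2 turned to 0.36 and Cfl2 to 1.57 in WT, and 1 of those 3 WT libraries had 82.4% of its counts in 10 genes.

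In FMR1 KO the occupancy was called higher for 4 genes and lower for 3 (background 31.8% and 35.2% of 16177 genes, 66.9% in all). Cap1 was at 1.45 ± 0.11, Actr2 at 1.08 ± 0.13, Actb at 0.69 ± 0.18 and Dstn at 0.48 ± 0.12, all called higher, while Cfl1 (-1.04 ± 0.17), Pfn2 (-0.66 ± 0.14) and Actg1 (-0.41 ± 0.15, adjusted p = 0.049 by edgeR) were called lower. Against the RNA-seq of the low nuclease set, Pfn2 and Actg1 turned to 0.31 and 0.47. By library size alone, where the median of all genes was -1.16, Actb, Dstn and Actr2 turned to -0.39, -0.63 and -0.017, and Cap1 was at 0.36 (adjusted p = 0.20 by edgeR). Arpc2, called in WT, was at 0.03 ± 0.11 in KO. The test of the difference itself, the interaction of genotype and library type, called none of the 10 (0.067% of 16410 genes called by edgeR). Arpc2 had the lowest p, with an interaction of -0.33 (95% interval -0.64 to -0.01, adjusted p = 0.80 by edgeR). Leaving out single libraries or replicates moved the number of genes called between 5 and 7 in WT and between 4 and 7 in KO. In KO it fell to 4 without all libraries numbered 1 and without those numbered 3, and the KO call of Actb held in 3 of 9 such fits, against 9 of 9 in WT. The WT call of Arpc2 and the KO call of Actg1 also held in 3 of 9.

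**Figure D3:**
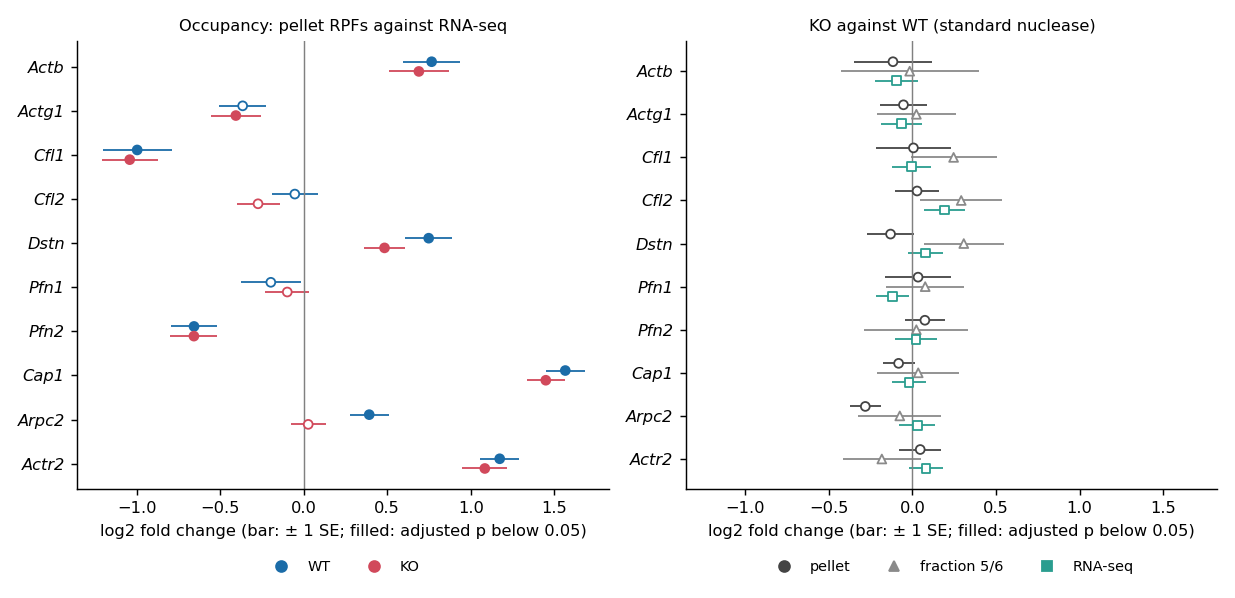
Left, log2 fold change (± 1 SE) of pellet RPFs against RNA-seq for the 10 genes in WT and FMR1 KO; right, log2 fold change of FMR1 KO against WT in pellet, fraction 5/6 and RNA-seq. Filled points have an adjusted p under 0.05 by edgeR. Cap1 (1.57 and 1.45) and Cfl1 (-0.996 and -1.04) mark the ends on the left, and no point is filled on the right.

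Fraction 5/6 gave the same ends against the standard RNA-seq. Against the RNA-seq of the low nuclease preparation, Dstn lay above Cap1 in both genotypes. In KO, edgeR called Cap1 (1.89), Dstn (1.20), Actr2 (1.06), Actb (0.83), Arpc2 (0.53) and Cfl2 (0.42) higher and Cfl1 (-0.46) lower on the log2 scale, with 62.8% of 16165 genes called (29.7% higher and 33.1% lower). By library size alone Actb, Cfl2 and Arpc2 turned to -0.021, -0.47 and -0.37. In WT, Cap1 (1.85), Actr2 (1.34) and Dstn (0.99) were called (55.9% of 16206 genes, 28.3% higher and 27.6% lower), and 7 of the 10 were called without the library labelled WT fraction 5/6 replicate 3, when calls over all genes rose from 9055 to 9858. Dstn turned to -0.26 by library size alone. The 2 comparisons with RNA-seq share their RNA-seq libraries with those of the pellet.

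In the wider actin list, 25 genes were called higher and 20 lower of 54 in WT occupancy, with a median of 0.29 (all genes 31.1% higher and 34.2% lower, median -0.10). The counts by role that follow are descriptions with no test. The bundling and side-binding proteins were called higher in 6 of 6 cases, among them the plastin Pls3 (2.29), and the filament-severing Gsn (gelsolin, 2.36) and Flii were both higher. Of the 8 nucleators 6 were higher and 1 lower. Tmsb10 (-4.17), one of the thymosins that sequester actin monomers, and Limk1 (-2.70), a kinase that inactivates cofilin, were the largest falls. Among regulators and partners of cofilin, 7 of 12 were lower and 4 higher. In the ARP2/3 complex, 2 of the 7 subunits outside the 10 genes were higher and 4 lower. In KO, 25 were higher and 21 lower, with Actn1 (2.54), Gsn (2.33), Tmsb10 (-4.51) and Limk1 (-2.58) at the ends. By library size alone the counts were 9 higher and 36 lower in WT and 5 higher and 33 lower in KO, so the split between directions rests on the scaling.

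Enrichment, the level in the pellet relative to fraction 5/6, compares RPFs with RPFs. In the standard preparation no gene of the 10 passed by edgeR in WT (0.0229% of 13122 genes called, 0.0152% higher and 0.00762% lower, 820 at an unadjusted p under 0.05; 0 of the 10 also without the library labelled WT fraction 5/6 replicate 3, when 1258 genes were called). In KO none passed either, with 11.5% of 13320 genes called (10.1% higher and 1.4% lower), and Dstn (-0.56 ± 0.14, adjusted p = 0.055) and Cfl2 (-0.54 ± 0.14, adjusted p = 0.059) were nearest to the threshold of edgeR. DESeq2 called 4 of the 10 in KO, and 2081 of all genes against 1528 by edgeR. In KO the wider list had 5 genes higher and 0 lower of 53, among them Dbn1 (drebrin, a filament side-binding protein of dendritic spines, 1.78) and the formin Daam1 (1.02), and 0 of them by library size alone.

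In the low nuclease preparation, 4 of the 10 genes were lower in the pellet than in fraction 5/6 in each genotype, and none was higher. In WT these were Dstn (-0.61 ± 0.17, adjusted p = 0.046), Cfl2 (-0.60 ± 0.11, adjusted p = 0.016), Arpc2 (-0.49 ± 0.12, adjusted p = 0.034) and Pfn1 (-0.46 ± 0.13, adjusted p = 0.049), all by edgeR, with 23% of 15563 genes called (8.63% lower and 14.3% higher). In KO they were Pfn1 (-0.89 ± 0.14, adjusted p = 0.018), Cfl1 (-0.64 ± 0.14, adjusted p = 0.033), Pfn2 (-0.60 ± 0.14, adjusted p = 0.035) and Arpc2 (-0.38 ± 0.10, adjusted p = 0.045), with 20% of 15555 genes called (10.7% lower and 9.3% higher). With the replicate number as a block, which pairs the WT libraries here, Cap1 was called as well in WT (-0.49, adjusted p = 0.049 by edgeR, against 0.090 without the block). Pfn1 shows the pattern in single libraries, with 76.4, 84.8 and 103.5 CPM in the KO pellet and 199.0, 177.9 and 181.5 CPM in KO fraction 5/6. The libraries of the 2 fractions do not overlap for this gene.

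The actins and Actr2 were not called. Actb was at 0.08 ± 0.32 in WT and -0.07 ± 0.25 in KO, Actg1 at 0.09 ± 0.22 and 0.20 ± 0.22, and Actr2 at 0.02 ± 0.14 and 0.27 ± 0.14. The interval of Actb in WT (95%, -0.68 to 0.85) is wide and holds the values of the 4 called genes. Those of Actg1 (-0.44 to 0.61) and Actr2 (-0.31 to 0.35) in WT do not reach these values. Whether these genes differ from the called ones was not tested. The median log2 fold change of the 10 genes was -0.44 in WT and -0.33 in KO, against -0.02 and -0.03 for all genes tested. The calls are not firm. Leaving out any 1 of the 6 libraries, or a replicate number, left 0 to 2 of the 4 called in either genotype, while the sign of each called gene held in every one of these fits. Whether the genotypes differ in these values was not tested.

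**Figure D4:**
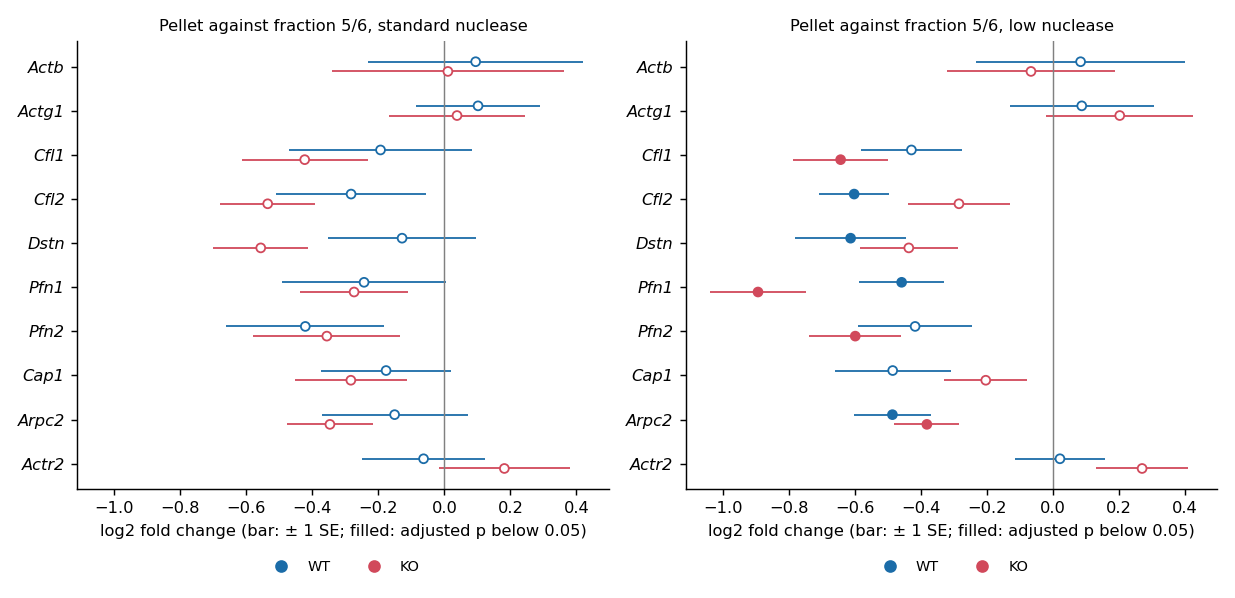
Log2 fold change (± 1 SE) of pellet against fraction 5/6 for the 10 genes in WT and FMR1 KO, with the standard preparation on the left and the low nuclease preparation on the right. Filled points have an adjusted p under 0.05 by edgeR. On the right, 4 genes per genotype are filled and all lie below 0, with Actb, Actg1 and Actr2 near or above 0.

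In the wider list, 5 genes were higher and 10 lower of 53 in the low nuclease WT pellet against fraction 5/6 (all genes 14.3% and 8.63%). Dbn1 (2.08) and Daam1 were the largest rises, and the tropomyosins Tpm2 (-0.81) and Tpm4 (-0.64) the largest falls, within a family of 4 tropomyosins that were all lower in WT, and of which 2 were lower in KO. In KO, 7 were higher and 15 lower (all genes 9.3% and 10.7%), with Dbn1 (1.44) and Daam1 (1.13) again at the top and the thymosins Tmsb10 and Tmsb4x (both -0.93) at the bottom, and 5 of 7 ARP2/3 subunits outside the 10 genes were lower (1 of 7 in WT), counts for which no test was made. By library size alone the counts were 4 and 16 in WT and 5 and 29 in KO.

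The standard and low nuclease preparations were set against each other within each fraction. In the WT pellet 6 genes were called higher in the standard preparation (Pfn1, Dstn, Cfl2, Actr2, Cap1 and Arpc2, 0.43 to 0.62 on the log2 scale, with 39% of 14538 genes called, 15% higher and 24% lower), but by library size alone none of the 10 was called and Cap1, Arpc2 and Actr2 turned to between -0.091 and -0.073. In the KO pellet Pfn1 (0.82) and Pfn2 (0.54) were called higher (16.9% of genes called, 7.4% higher), and none by library size alone. In fraction 5/6, none was called in WT (9.7% of genes called; 1 with the library labelled WT fraction 5/6 replicate 3 left out), and Cfl2 (0.78) and Dstn (0.60) were called higher in KO (20.9% of genes called, 10% higher), and none by library size alone. With libraries or replicates left out, 6 of 18 such calls held in the WT pellet, 1 of 8 in the KO pellet and 1 of 6 in KO fraction 5/6. The direction held in all of these fits. The actins differed by at most 0.33 in these 4 comparisons and were not called.

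Peaks mark positions where RPFs pile up on a transcript. The 12 standard RPF libraries held 663 peaks on the 10 transcripts, 51 to 63 per library, and 648 of them (97.7%) had their zenith in the coding sequence. Zeniths within 6 nt of each other were matched into 220 windows, of which 4 were present in all 12 libraries and 86 in a single one. Of the 4, 3 were on Actg1 and 1 on Cfl1. Their genes, unlike Cfl2 or Pfn2, also had few windows in all, 5 on Actg1 and 13 on Cfl1.

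On Actg1 the tallest peak was at codon 121 in all 12 libraries. Its height was 1742, 873 and 827 reads in the WT pellet, 1584, 774 and 923 in the KO pellet, 1631, 617 and 756 in WT fraction 5/6 and 795, 1505 and 458 in KO fraction 5/6. Heights are not scaled between libraries, so only positions and ranks within a library are compared. Further Actg1 peaks were at codon 328 (12 libraries), at codon 268 (11 libraries) and 9 nt before the start codon (12 libraries). In most libraries these 4 were all the peaks that Actg1 had.

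On Actb the tallest peak was at codon 368 in 10 libraries, 22 nt before the stop codon, with a height of 589 to 3950 reads in the 11 libraries that had it. The other recurring Actb peaks were at codons 251, 270, 293, 327 and 344, each in 9 or 11 libraries. All 6 lie in the last 373 nt before the stop codon. Actb codon 270 lies 7 nt downstream of the Actg1 peak at codon 268, and Actb codon 327 lies 3 nt upstream of that at codon 328.

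On Cfl1 the tallest peak was at codon 129 in all 12 libraries (260 to 812 reads), with further peaks at codon 80 (11 libraries) and codon 144 (9 libraries). Dstn had a peak at codon 19 in 10 libraries, and Actr2 had peaks at codons 288 and 334 in 9 and 10. Cfl2, Pfn1, Pfn2, Cap1 and Arpc2 had no window in 9 or more libraries. Cfl2 and Pfn2 nevertheless had 5 to 9 and 6 to 9 peaks per library, spread over 37 and 33 windows. Pfn1 had 0 to 3 and Arpc2 0 to 4 peaks per library.

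**Figure D5:**
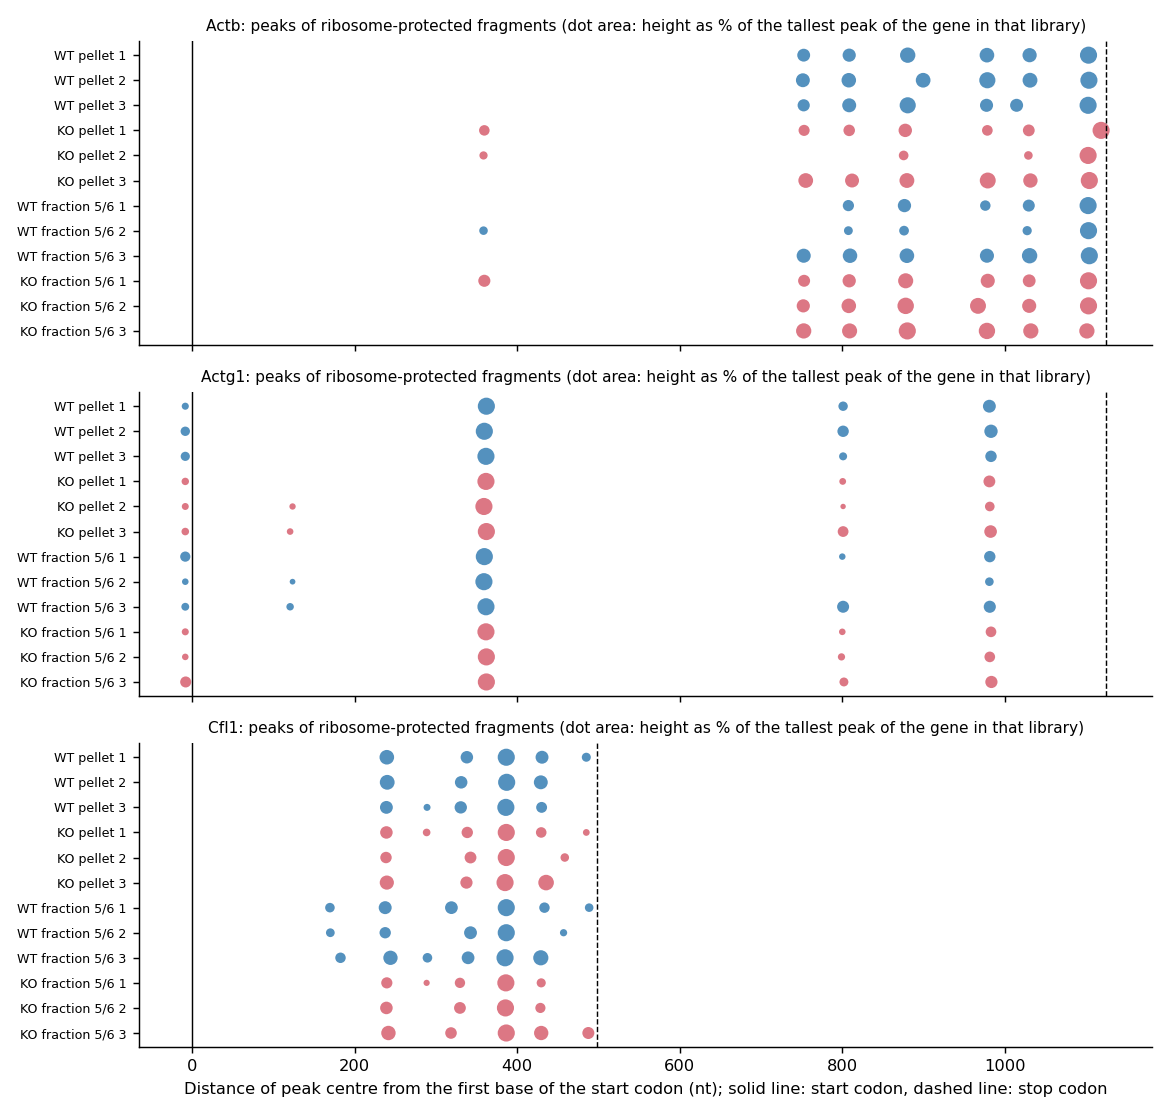
Peaks on Actb, Actg1 and Cfl1 in the 12 standard RPF libraries. The horizontal axis gives the distance of the zenith from the start codon in nt, each row is 1 library, and the dot area gives the height as a percentage of the tallest peak of that gene in that library. The Actg1 peak at codon 121 and the Cfl1 peak at codon 129 are the largest dots in all 12 rows, and those of Actb gather near the stop codon.

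The number of peaks per gene was compared between genotypes and fractions with 40 two-sided exact permutation tests, none of which can go below 0.1 with 3 against 3. This smallest p was reached for Pfn1 in fraction 5/6, with 0, 1 and 1 peaks in WT and 2, 2 and 3 in KO, and for Pfn1 in WT between the pellet (2, 2 and 2) and fraction 5/6, both 1.0 after Benjamini-Hochberg adjustment. These 2 tests share the libraries of WT fraction 5/6, among them the one that goes against its label. Over the 10 genes, 18 peak windows were present in all 3 WT pellet libraries, 13 in all 3 KO pellet libraries and 7 in both. When 2 of 3 libraries sufficed in each genotype, 18 windows were in both. The Actb windows at codons 251, 270, 327 and 368 were in 3 WT and 2 KO pellet libraries, and those at codons 293 and 344 in 2 and 3. The same counts were not made over all transcripts.

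Exon junctions were near 9 of the recurring peaks. Of the 16 windows found in 9 or more libraries, the 4 of Actg1 had their zenith 0.5 to 2 nt from a junction, the Cfl1 peak at codon 129 was 1 nt away, and the Actb peaks at codons 270 and 327 were 7 and 5.5 nt away. The 2 Actr2 peaks were 19 and 14 nt away. The other 7 windows were at least 42 nt from the nearest junction. Positions within 21 nt of a junction make up 16.2% of the coding sequence of each actin, 21.6% of Cfl1 and 28.4% of Actr2.

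Copies of these sequences elsewhere in the genome follow a related pattern. Every 29-base stretch of the Actg1 coding sequence (1100 of 1100) has an exact copy elsewhere in GRCm38, against 48.5% for Actb, 70.4% for Cfl1 and 31.5% for Actr2. For Arpc2 and Dstn it was 13.9% and 11.9%, for Cap1 and Pfn1 3.72% and 2.53%, and for Cfl2 and Pfn2 0%. Of the 15 coding windows found in 9 or more libraries, 6 had no copy-free stretch around the zenith, and these were the 3 coding peaks of Actg1, Actb codons 270 and 327 and Cfl1 codon 129. All 6 lie within 21 nt of a junction, against 2 of the other 9. The tallest Actb peak, at codon 368, and the Cfl1 peak at codon 80 had copy-free stretches in all 21 positions examined. How reads with several matching places were counted is not given in the sources used here, and the part of such copies in the peaks, in the levels of Actg1 and Cfl1 and in the ratio of the actins was not tested.

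The 4 muscle actins (Acta1, Acta2, Actc1, Actg2) were followed beside the 10 genes. All 4 were called higher in the pellet than in RNA-seq by edgeR in WT and KO, with log2 fold changes of 6.95 and 7.04 for Actc1, 4.32 and 4.44 for Actg2 and 3.77 and 3.63 for Acta2. Their levels were low, at most 6.62 CPM of Actc1 and 13.5 CPM of Acta2 in the standard RPF libraries, and Ckm, a marker of skeletal muscle, was at most 1.86 CPM. Acta1 was at 314.4 CPM in WT pellet replicate 3 and 124.1 CPM in KO pellet replicate 2 but at 6.47 to 12.9 CPM in the other standard RPF libraries, against 8.94 to 11.8 CPM in the standard RNA-seq, so the calls of Acta1 include 1 such library in each genotype and the other pellet libraries overlap RNA-seq. Of the 29-base stretches of their coding sequences, 5.88% of Acta1, 2.62% of Acta2, 0.362% of Actc1 and 0% of Actg2 occur in Actb or Actg1.

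The genes outside the set whose pattern was most like that of Actb over the 36 libraries were Pde12 (Pearson's r of log2 CPM 0.995), Ppp5c (0.994), Qrich1 (0.993), Usp39 (0.992) and Map4k5 (0.991). These are descriptions over libraries that share their preparations, and 3 RNA-seq libraries with few counts for most genes carry much of them. Over the other 33 libraries r was 0.913 to 0.952 for these 5 genes. For the other 9 genes of the set, r with Actb was 0.764 (Cfl1) to 0.963 (Actr2) over 36 libraries and 0.210 (Pfn1) to 0.685 (Dstn) over 33.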

How the data were processed

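RPFs and RNA-seq of mouse brain were analysed from the count table (24 RPF and 12 RNA-seq libraries) and from 12 peak files. By the submitters' processing notes and the study's methods, the authors trimmed adapters (cutadapt 2.10), filtered rRNA and other ncRNA out (Bowtie2 2.3.5), aligned to GRCm38 with STAR 2.7.8a, removed duplicates with Picard and SAMtools 1.19.2 and counted reads per gene with featureCounts 2.2.0, and the deposited counts are whole numbers that were not normalized. The deposited peak heights are coverage signal in reads, called per library on Ensembl transcripts and not scaled between libraries. Barcodes mark samples and not molecules.

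Here Cdk8 was left out of the library sizes. Protein-coding genes (16561 of 16614 rows, by GENCODE M21) were filtered with filterByExpr, scaled by TMM and tested with edgeR 4.0.16 (quasi-likelihood test, only the compared groups, Benjamini-Hochberg over all genes tested, threshold 0.05). The 10 genes had 621 to 100644 counts in the standard RPF libraries and all passed the filter in every comparison. The scripts were tested on simulated data, in which WT occupancy recovered 34% of 2-fold and 87% of 4-fold changes. Alternatives were DESeq2 1.42.0, library size alone, no filter on low counts, Cdk8 kept, all biotypes, one model over all groups, a replicate block, the other RNA-seq set and leaving out replicates. Same-numbered libraries deviated together (r above 0.1 for each of 3 numbers) in WT enrichment at low nuclease (0.188, 0.119 and 0.210), where the block gave 5 genes called instead of 4.

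Zeniths within 6 nt were matched. Peaks of Actg1 and Cap1 were called on other transcripts than the table names, and positions may be off by 1 nt, because the base of the peak coordinates is not stated. Sequences come from GRCm38 with GENCODE M21, and the study's peak list gave the sequences searched for motifs. Peptide sequences were not used here, and 1 aligned Actb window is not reported here. The named genes are the 10, Fmr1, Cdk8, the 2 largest called rises and falls of the wider actin list and the 5 genes most like Actb. Others named from that list were chosen after their values were seen. The genes and lists were chosen with earlier results of these data known.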

Additional observations from a re-analysis of the deposited data

How the results depend on the processing

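For the genotype comparisons, 0 of the 10 genes were called under every alternative run. By library size alone the occupancy turned in WT for Actb (-0.37), Dstn (-0.39) and Arpc2 (-0.75) and in KO for Actb (-0.39), Dstn (-0.63), Arpc2 (-1.08) and Actr2 (-0.017). In fraction 5/6 against RNA-seq it turned in WT for Actb (-0.46), Cfl2 (-0.93), Dstn (-0.26), Pfn1 (-1.12) and Arpc2 (-0.61) and in KO for Actb (-0.021), Cfl2 (-0.47), Pfn1 (-0.53) and Arpc2 (-0.37). In the WT pellet between preparations it turned for the called Cap1 (-0.082), Arpc2 (-0.091) and Actr2 (-0.073). Genes not called also changed sign there and in other comparisons. The RNA-seq of the low nuclease preparation turned the occupancy of Cfl2 (1.57 in WT, 1.61 in KO), Pfn2 (0.36 and 0.31), Actg1 (0.51 and 0.47) and Pfn1 (0.42 and 0.38), and in fraction 5/6 against RNA-seq Actg1 (0.49 in WT, 0.59 in KO), Pfn2 (0.86 and 0.83) and, in KO, Cfl1 (0.36). The cause was not tested. Library size alone moved the median of all genes by over 0.1 in each comparison but 5, namely KO against WT in the standard pellet, in RNA-seq and in low nuclease fraction 5/6, the occupancy interaction and WT enrichment at standard nuclease.

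The number called in WT fraction 5/6 against RNA-seq was 3, and 6 by DESeq2, one model or the other RNA-seq set, 5 by library size alone and 2 to 7 with a replicate left out. In KO it was 7, 4 by library size alone and 4 to 8 with a replicate left out. KO enrichment at standard nuclease had 0, and 4 by DESeq2, 1 with Cdk8 kept and 2 in one model. At low nuclease, WT enrichment had 4, and 0 to 2 with a library left out. KO enrichment had 4, with 7 by library size alone, 1 in one model and 0 to 2 with a library left out. Between preparations, the WT pellet had 6, and 0 by library size alone, 3 with the replicate block and 0 to 4 with a replicate left out. The KO pellet had 2, and 5 by DESeq2, 0 by library size alone, 1 without the filter or in one model, 0 with the replicate block and 0 to 1 with a replicate left out. WT fraction 5/6 had 0, and 1 by DESeq2 or in one model and 0 to 1 with a replicate left out. KO fraction 5/6 had 2, and 4 by DESeq2 or in one model, 0 by library size alone or the replicate block, 1 without the filter and 0 to 1 with a replicate left out. WT occupancy had 7, and 5 to 7 with a library left out, and KO occupancy 7, and 4 to 7. Windows matched in 2 of 3 libraries in place of all 3 numbered 18 in both pellet groups, from 7, and 13 in all 4 groups, from 4. Other replicate numbers carry no known pairing. Counts of Cfl2 as low as 621 and the spread between 3 pools limit single genes.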
